A study of Mus musculus with 31 samples.

Results

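The Krüppel-like factors (KLFs) are a family of transcription factors, and 10 of their genes were followed here in liver and muscle: Klf2, Klf3, Klf4, Klf6, Klf9, Klf10, Klf11, Klf12, Klf13 and Klf15. They are 10 of the 17 Klf genes that carry a symbol among the 35275 gene identifiers of the insulin experiment and the 54532 of the ERRα3SA experiment. They were picked by name from the family for known links to fasting, insulin or the circadian clock. The list was chosen with results of these libraries in view, so the calls below describe the 10 genes and are not independent evidence about the family. All 10 passed the filter on low counts in every comparison. The other 7 Klf genes were not all lower than the members. In WT muscle, Klf7 had 9.35 to 9.93 CPM (counts scaled to library size), against 4.09 to 11.4 CPM for the member Klf11. Klf8, Klf14 and Klf17 had between 0 and 15 counts in every library. Klf1, Klf5, Klf7 and Klf16 had at most 13.6 CPM in any library.

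KLF proteins share zinc fingers at their carboxy terminus that bind GC-rich and CACCC-type DNA, the same letters that the related Sp proteins recognise. Members differ in what they recruit. Some activate transcription, while others bind the corepressors CtBP or Sin3A and repress it. In liver, KLF15 is known for the fasting control of amino acid breakdown and gluconeogenesis, KLF9 is a target of the glucocorticoid receptor, KLF10 follows the circadian clock, and KLF2, KLF4 and KLF6 are induced quickly by many stimuli.

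Livers of the insulin experiment came from WT and ERRα-/- mice on a C57BL/6N background that were fasted for 12 h overnight and injected with saline or insulin (1 unit per kg). They were collected 4 h later, at ZT6 (6 h after lights on), and gave 4 libraries per group except 3 for ERRα-/- mice given insulin. ERRα-/- mice lack the nuclear receptor ERRα in every tissue. The ERRα3SA experiment held liver and skeletal muscle (gastrocnemius and soleus) of WT littermates and of mice homozygous for ERRα3SA, 4 libraries per group. In ERRα3SA mice 3 serines of ERRα are alanines, introduced by CRISPR/Cas9 in the germ line and thus present in every tissue. These mice were given neither insulin nor saline according to their labels, and tissues were collected between ZT2 and ZT6. All were male C57BL/6N mice 2 to 3 months old on a standard diet. The labels number the libraries without tying them to animals, so p-values measure the spread between these libraries, and whether a liver and a muscle of the same number came from 1 mouse is not given in the sources used here.

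Libraries held 35871419 to 48317108 counts each in the first experiment, and 20481405 to 33412022 in the second. Esrra, which encodes ERRα, had 32.3 to 96.5 CPM in WT livers of the insulin experiment and 0.298 to 1.63 CPM in ERRα-/- livers. Hepatocyte markers summed to 62729 to 109592 CPM over 6 genes in the livers and to at most 1.30 CPM in the muscles, and skeletal muscle markers summed to 81308 to 185176 CPM in the muscles. One library stood apart from its group more than any other. Replicate 1 of ERRα3SA muscle differed from the other libraries of its group by a median of 0.515 on the log2 scale over 10132 genes, against 0.0908 to 0.221 in the other muscles. Mitochondrial genome counts made up 19.3% of that library and 9.15 to 10.8% of the other muscles, and Esrra was at 24.3 CPM in it against 94.6 to 133 CPM in the other ERRα3SA muscles. In the insulin experiment, WT insulin replicate 2 was the farthest from its group (0.306 on the log2 scale over 8686 genes, against 0.125 to 0.230 in the other livers). Mitochondrial genome counts made up 1.88% of that library and 3.14 to 4.82% of the other livers of the experiment.

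Sequences upstream of the members that passed the test after insulin are shown because KLF proteins bind letters of the kind found in them. A RefSeq promoter window on GRCm38.p6 was listed for 9 of the 10 members, all but Klf10. From the 250 bases before the RefSeq start, the longest stretch free of annotated exons of the gene is printed 5′ to 3′, with GGGCGG (a GC box) and CCACCC, on either strand, in capitals. The first pair is Klf2 (chr8:72318812-72319032, plus strand, 221 bases) and Klf6 (chr13:5861239-5861481, plus strand, 243 bases), which were higher after insulin in WT livers. The others are Klf3 (chr5:64803271-64803387, plus strand, 117 bases), Klf12 (chr14:100149797-100150046, minus strand, 250 bases) and Klf13 (chr7:63938916-63939165, minus strand, 250 bases), which were lower after insulin in ERRα-/- livers.
Klf2: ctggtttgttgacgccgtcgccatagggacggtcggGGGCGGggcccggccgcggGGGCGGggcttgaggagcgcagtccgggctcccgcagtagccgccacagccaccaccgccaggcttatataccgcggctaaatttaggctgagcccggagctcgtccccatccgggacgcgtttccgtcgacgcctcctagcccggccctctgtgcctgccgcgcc
Klf6: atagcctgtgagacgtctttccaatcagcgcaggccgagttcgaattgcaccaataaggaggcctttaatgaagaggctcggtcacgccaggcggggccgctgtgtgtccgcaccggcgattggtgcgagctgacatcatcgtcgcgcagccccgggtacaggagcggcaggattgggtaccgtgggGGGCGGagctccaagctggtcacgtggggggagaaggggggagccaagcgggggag
Klf3: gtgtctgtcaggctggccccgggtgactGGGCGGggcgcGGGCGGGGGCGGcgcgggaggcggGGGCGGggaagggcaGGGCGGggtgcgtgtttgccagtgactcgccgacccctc
Klf12: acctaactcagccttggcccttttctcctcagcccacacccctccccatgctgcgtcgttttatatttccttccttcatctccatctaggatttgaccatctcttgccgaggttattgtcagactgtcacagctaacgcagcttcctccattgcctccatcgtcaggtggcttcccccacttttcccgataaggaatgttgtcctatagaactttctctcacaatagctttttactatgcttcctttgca
Klf13: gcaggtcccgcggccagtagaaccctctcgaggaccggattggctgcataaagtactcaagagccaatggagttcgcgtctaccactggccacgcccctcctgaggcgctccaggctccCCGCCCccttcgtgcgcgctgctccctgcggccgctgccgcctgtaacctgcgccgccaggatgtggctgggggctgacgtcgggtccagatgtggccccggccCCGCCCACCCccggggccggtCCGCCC

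The stretch of Klf3 held 5 GC boxes in 117 bases, that of Klf13 held 3, that of Klf2 held 2 and that of Klf6 held 1. Klf12 held none, and its 250 bases were 48.0% G or C, against 64.2 to 79.5% in the other 4. The RefSeq start of Klf12 lies inside the gene as GENCODE draws it, so its window is intronic to longer transcripts. CCACCC was found in the Klf13 stretch alone, where it overlaps a GC box. Over all 250 bases, a GC box was present in 7 of the 9 members (Klf2, Klf3, Klf4, Klf6, Klf11, Klf13 and Klf15) and in 32.9% of the windows of 27025 genes. CCACCC was present in Klf2, Klf3 and Klf13 and in 27.7% of all windows. The E-box CACGTG, the letters that CLOCK and BMAL1 bind, was present in 4 of 9 members and in 6.05% of all windows. It lay at 228 and 172 bases before the start of Klf15, at 182 of Klf4, at 214 of Klf11 and at 43 of Klf6. TGACG, the core of the cyclic AMP response element, was present in 6 of 9 members (Klf2, Klf4, Klf9, Klf12, Klf13 and Klf15) and in 17.9% of all windows, and the full element TGACGTCA in none of the 9. GTAAACA, which FOXO factors bind, was present in Klf9 alone, 100 bases before its start, and in 3.09% of all windows. CCAAT was present in Klf6, Klf9, Klf11, Klf13 and Klf15 and in 34.5% of all windows. AAGGTCA (bound by ERR proteins), AGAACA (bound by the glucocorticoid receptor) and TTATGTAA (D-box) were in none of the 9 and in 4.05, 16.2 and 0.862% of all windows. Each motif was sought on both strands, and a match describes the letters of the window only.

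Levels of different genes were compared as CPM per kb of the main transcript. Klf15 was the most abundant member in livers of fasted WT mice given saline, with 67.9 ± 6.79 CPM per kb (SD, n = 4), followed by Klf9 with 41.1 ± 2.39. Klf13 (15.1 ± 2.97) and Klf3 (11.7 ± 1.13) came next, and their ranges overlapped. Klf2, Klf12, Klf6, Klf11 and Klf10 lay between 4.17 and 1.93 CPM per kb, each overlapping the next in range. Klf4, best known from stem cells and epithelia, was the lowest at 0.74 ± 0.21. Klf15 and Klf9 led in the same order in each of the 6 liver groups, with ranges that overlapped only in WT mice given insulin, and Klf4 had the lowest mean in each of the 6. In WT mice given insulin the ranges of Klf4 and Klf12 overlapped, and per kb of all exons Klf12 was the lowest there.

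**Figure D1:**
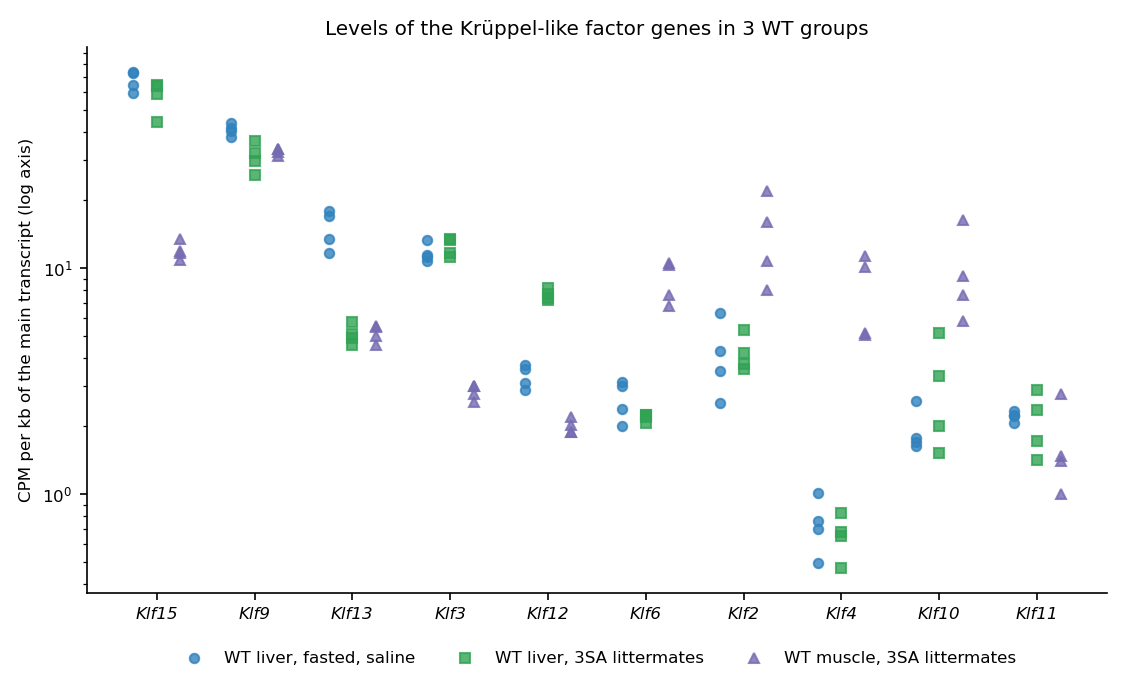
CPM per kb of the main transcript (log axis) of the 10 KLF genes in livers of fasted WT mice given saline, WT liver of the ERRα3SA experiment and WT muscle, 1 point per library. Klf15 and Klf9 lead in both livers, Klf9 leads in muscle, and Klf4 is the lowest in both livers.

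Klf15, which drives amino acid breakdown genes during fasting, did not pass the test after insulin in either genotype. It had 160, 184, 181 and 149 CPM in WT mice given saline and 178, 246, 130 and 124 CPM in WT mice given insulin. The ERRα-/- values were 207, 190, 239 and 159 CPM with saline and 210, 215 and 209 CPM with insulin. Saline and insulin groups overlapped within each genotype. ERRα-/- livers given insulin lay above every WT liver given saline, but these groups differ in genotype and treatment and were not tested against each other. Between genotypes, Klf15 passed the test neither with saline nor with insulin. By edgeR, its log2 change after insulin was 0.01 (SE 0.20, 95% interval by normal approximation -0.39 to 0.41) in WT and 0.08 (SE 0.14, interval -0.19 to 0.36) in ERRα-/- livers. Of 20 genes of amino acid breakdown and the urea cycle, 5 were called higher (8.34% of all genes were) and 1 lower (8.91%) in WT and 5 higher (8.05%) in ERRα-/- livers. They included Got1, a cytosolic aminotransferase (log2 1.59 in WT, adjusted p = 0.0106; 1.67 in ERRα-/-, adjusted p = 0.0354).

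Klf9, a glucocorticoid-induced member, had 186, 198, 183 and 172 CPM in WT mice given saline and 271, 157, 173 and 164 CPM with insulin. Values of ERRα-/- livers were 219, 190, 225 and 143 CPM with saline and 187, 186 and 179 CPM with insulin. The groups overlapped, with WT insulin replicate 1 highest of the 15 livers. The log2 fold change after insulin was 0.05 (SE 0.17) in WT and -0.08 (SE 0.15) in ERRα-/- livers, neither past the test. Of 12 glucocorticoid-induced genes, 6 were called higher in WT livers (8.34% of all genes were) and 5 in ERRα-/- livers (8.05%), 3 and 1 of them with an adjusted p under 0.05. The change was above 0 for 10 of the 12 in WT and 7 of the 12 in ERRα-/- livers. Among those called was Fkbp5 (an FK506-binding co-chaperone), at log2 0.90 (adjusted p = 0.0498) and 1.35 (adjusted p = 0.00643).

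Insulin passed the test for 3 of the 10 members in WT livers, against 17.2% of the 13463 genes tested. A call was an unadjusted p under 0.05 and a fold of at least 1.2 in edgeR's quasi-likelihood test, and adjusted p-values are over all genes tested. Klf6 and Klf2 were higher (2 members, against 8.34% of genes called higher) and Klf12 was lower (1 member, against 8.91%). The median log2 change of the 10 members was 0.04, beside 0.00 over all genes. Insulin also passed the test for 3 of 10 in ERRα-/- livers, against 17.2% of 13684 genes. There Klf3, Klf12 and Klf13 were lower (9.14% of genes called lower) and none was higher (8.05%), and the median was -0.03 beside -0.02. In bulk RNA, fewer cells of a type and less RNA per cell cannot be told apart in any of these values.

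Klf6, a quick-response activator also known in hepatic stellate cells, had 8.47, 13.3, 10.03 and 12.8 CPM in WT mice given saline and 24.9, 24.03, 17.4 and 20.4 CPM with insulin. In ERRα-/- livers it had 17.3, 11.3, 17.8 and 17.9 CPM with saline and 17.6, 25.3 and 16.6 CPM with insulin. WT groups did not overlap, while those of ERRα-/- mice did. By edgeR, its log2 change after insulin was 0.96 (SE 0.18, adjusted p = 0.0179) in WT and 0.30 (SE 0.20, adjusted p = 0.475) in ERRα-/- livers. The difference between the effects of insulin, WT minus ERRα-/-, was 0.66 (SE 0.28, adjusted p = 0.545). With saline, Klf6 was higher in ERRα-/- than in WT livers by 0.53 (SE 0.19, adjusted p = 0.290).

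Klf2, which keeps endothelium quiescent, had 4.66, 11.7, 7.93 and 6.50 CPM in WT mice given saline and 17.7, 12.7, 8.27 and 17.2 CPM with insulin. Among ERRα-/- mice, livers had 8.005, 8.95, 7.40 and 9.87 CPM with saline and 6.87, 10.4 and 8.25 CPM with insulin. WT insulin replicate 3 was within the saline range and the other 3 above it, and the ERRα-/- groups overlapped. The log2 fold change after insulin was 0.86 (SE 0.30, adjusted p = 0.166) in WT and -0.01 (SE 0.18) in ERRα-/- livers. The effects differed by 0.87 (SE 0.39, adjusted p = 0.548). Endothelial markers summed over 8 genes to 134 to 226 CPM in WT mice given saline and 125 to 177 CPM with insulin, with no endothelial marker called higher in WT. They summed to 137 to 170 and 168 to 182 CPM in ERRα-/- livers.

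Klf4, related to Klf2 in sequence and also expressed in endothelium, had 2.12, 3.08, 2.31 and 1.503 CPM in WT mice given saline and 5.47, 0.511, 3.23 and 7.49 CPM with insulin. The ERRα-/- values were 1.60, 1.45, 1.65 and 1.995 CPM with saline and 1.77, 1.56 and 1.52 CPM with insulin. In WT mice given insulin, 3 livers were above the saline range and replicate 2 below it. By edgeR, its log2 change after insulin was 0.89 (SE 0.58, adjusted p = 0.460) in WT and -0.05 (SE 0.29) in ERRα-/- livers. Without WT insulin replicate 2 it was 1.26 (adjusted p = 0.0850), and the call was then made. The counts were 18 in that library and 65 to 316 in the other WT livers.

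Klf3, a CtBP-binding repressor, had 60.0, 69.7, 58.4 and 56.5 CPM in WT mice given saline and 125, 25.9, 20.9 and 24.3 CPM with insulin. In ERRα-/- livers it had 56.4, 63.7, 82.9 and 53.8 CPM with saline and 22.4, 36.3 and 28.6 CPM with insulin. All 3 livers of ERRα-/- mice and 3 of 4 of WT mice given insulin lay below every saline liver, while WT insulin replicate 1 lay above them all. The log2 fold change was -1.15 (SE 0.19, adjusted p = 0.0159) in ERRα-/- and -0.32 (SE 0.49, adjusted p = 0.793) in WT livers. Without WT insulin replicate 2, the WT value was -0.11 (SE 0.52, adjusted p = 0.950). Without WT insulin replicate 1, the WT value was -1.37 (SE 0.14, adjusted p = 0.00199). That library holds the outlying Klf3 value itself, so leaving it out favours a fall and this p-value is a description only. An antisense gene, Gm20033, covers 404 bases (3.59%) of the Klf3 exons and had 15 counts in that library and 0 to 14 in the other livers, against 860 to 4695 counts of Klf3.

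Klf13 and Klf12 also fell in ERRα-/- livers. Klf13, a Sin3A-binding member known from T cells and heart, had 86.2, 74.8, 115 and 109 CPM in WT mice given saline and 96.8, 21.4, 59.8 and 51.4 CPM with insulin. ERRα-/- livers had 63.5, 85.1, 76.4 and 76.6 CPM with saline and 39.4, 33.3 and 32.5 CPM with insulin. The ERRα-/- groups did not overlap, and replicate 1 alone of the WT insulin livers lay within the saline range. By edgeR, its log2 change after insulin was -1.11 (SE 0.13, adjusted p = 0.00396) in ERRα-/- and -0.75 (SE 0.34, adjusted p = 0.292) in WT livers, and -1.12 (adjusted p = 0.0879) in WT without replicate 1. Without WT insulin replicate 2, the liver lowest in Klf13, the WT value was -0.48 (SE 0.23, adjusted p = 0.351).

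Klf12, another CtBP-binding repressor, had 18.4, 22.0, 17.0 and 21.1 CPM in WT mice given saline and 14.9, 4.54, 9.78 and 8.21 CPM with insulin. Among ERRα-/- mice, livers had 17.5, 18.5, 14.99 and 12.4 CPM with saline and 11.8, 8.78 and 8.79 CPM with insulin. Neither genotype's groups overlapped. The log2 fold change was -1.07 (SE 0.28, adjusted p = 0.0716) in WT and -0.70 (SE 0.18, adjusted p = 0.0684) in ERRα-/- livers. Without WT insulin replicate 2, the liver lowest in Klf12, the WT value was -0.85 (SE 0.21, adjusted p = 0.0631). Without WT insulin replicate 1, the WT value was -1.39 (SE 0.24, adjusted p = 0.0164). That library held the highest WT insulin value of Klf2, Klf3, Klf6, Klf9, Klf12 and Klf13. Without it the changes of Klf2 and Klf6 were 0.73 and 0.89, and 5 members were called in WT livers (Klf2, Klf3, Klf6, Klf12 and Klf13) against 17.0% of genes. Leaving out the highest insulin value of a gene favours a fall. The calls and p-values of Klf3, Klf12 and Klf13 without that library are thus descriptions, not tests. Without WT insulin replicate 2 instead, 4 members were called (Klf2, Klf4, Klf6 and Klf12) against 15.6% of genes. In the same way, leaving out replicate 2, the lowest in Klf4, favours a rise of Klf4.

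Klf10 and Klf11, TGFβ-inducible repressors that bind Sin3A, did not pass the test after insulin. Klf10 had 7.85, 5.42, 5.19 and 4.99 CPM in WT mice given saline and 3.91, 4.34, 16.6 and 5.27 CPM with insulin, and it had 13.9, 7.08, 6.53 and 6.27 CPM with saline and 13.7, 5.19 and 9.80 CPM with insulin in ERRα-/- livers. Klf11 ranged from 8.48 to 9.55 CPM and from 5.56 to 14.3 CPM in WT, and from 7.58 to 15.01 CPM and from 9.91 to 17.6 CPM in ERRα-/- livers, with saline and insulin in that order. Both genes were highest of the WT livers in insulin replicate 3. Skeletal muscle markers summed to 78.3 CPM over 6 genes in that library and to at most 6.01 CPM in the other 14 livers, against 108144 to 121240 CPM in the WT muscles, where Klf10 was at 17.8 to 49.7 CPM. The part of such RNA in the Klf10 and Klf11 values was not tested.

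**Figure D2:**
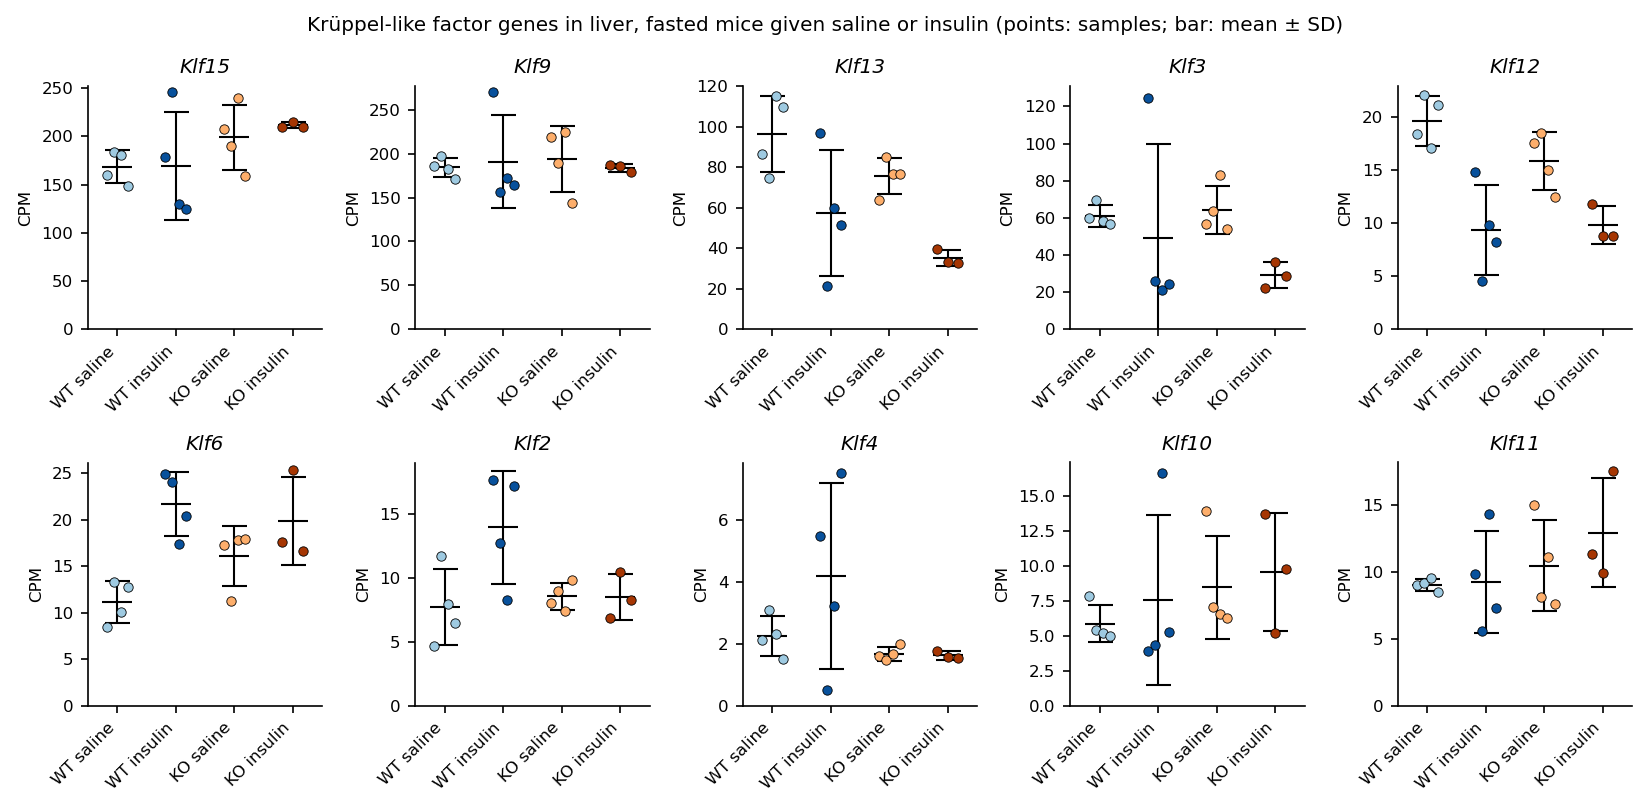
CPM of each KLF gene in livers of the insulin experiment, 1 point per library with the mean ± SD of each group (the Klf3 bar of WT mice given insulin is drawn down to 0). Klf3 in WT mice given insulin lies at 20.9 to 25.9 CPM in 3 libraries and 125 CPM in 1, and Klf6 of WT mice given insulin lies above every WT saline library.

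**Figure D3:**
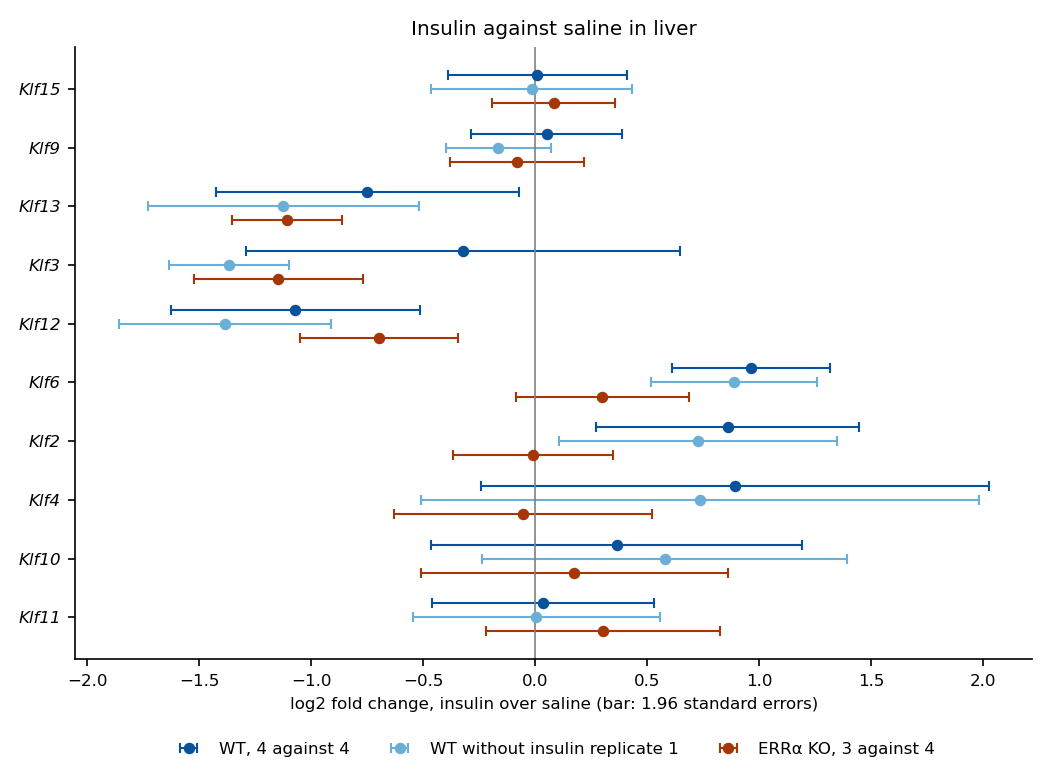
Log2 fold change of insulin over saline with its 95% interval (normal approximation) for each KLF gene in WT livers, WT livers without insulin replicate 1 and ERRα-/- livers. The points of Klf13, Klf3 and Klf12 lie below 0 in all 3 series, 2 of which share WT livers. The Klf3 interval of WT with all libraries spans 0 (-1.29 to 0.65). That of Klf13 lies below 0 (-1.42 to -0.07), though Klf13 was not called (unadjusted p = 0.0520 by edgeR). With so few libraries the normal approximation gives short bars, which do not stand in for the test. The Klf3 value of WT moves from -0.32 to -1.37 when insulin replicate 1 is left out, with a shorter bar. That library held the highest WT insulin values of Klf13, Klf3 and Klf12, so leaving it out favours their fall.

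Between genotypes, 2 of 10 members passed the test with saline, against 11.3% of 13481 genes. Klf6 was higher in ERRα-/- livers, as given above, and Klf13 was lower by a log2 change of -0.35 (SE 0.15, adjusted p = 0.364). The number called was 1 without ERRα-/- saline replicate 3 or WT saline replicate 4, and 3 without ERRα-/- saline replicate 2 or 4 or WT saline replicate 1. Of 6 macrophage markers 3 were lower in the same comparison, and they summed to 127 to 252 CPM in WT and 130 to 149 CPM in ERRα-/- livers. The part of those cells was not tested. With insulin 1 of 10 passed it, against 9.99% of 13665 genes. That was Klf2, lower in ERRα-/- livers by a log2 change of -0.72 (SE 0.27, adjusted p = 0.395). Klf4 differed by -1.38 (SE 0.65, adjusted p = 0.508, not called). Of 8 endothelial markers 2 were higher and none lower in that comparison. Leaving out 1 library in turn moved the number called with insulin between 0 and 4. It was 0 without WT insulin replicate 1 or 4 or ERRα-/- insulin replicate 1 or 4, 4 without WT insulin replicate 2 and 3 without WT insulin replicate 3.

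The genotype by insulin interaction, tested directly, passed the test for 2 of 10 members (Klf2 and Klf6), against 8.79% of 14670 genes. The median over members was 0.27, beside 0.02 over all genes. No gene had an adjusted p under 0.05 by edgeR, which called 1289 genes at an unadjusted p under 0.05, while DESeq2 gave 20 genes an adjusted p under it. For Klf3 the difference was 0.82 (SE 0.62, adjusted p = 0.721) with all libraries and -0.23 (adjusted p = 0.800) without WT insulin replicate 1. Without that library Klf12 was the only member called (-0.69, adjusted p = 0.512). No member was called without WT saline replicate 1, ERRα-/- saline replicate 4 or ERRα-/- insulin replicate 1 or 4. A single one was called without WT saline replicate 3 or 4, WT insulin replicate 4 or ERRα-/- saline replicate 1, 2 or 3, and 3 were without WT insulin replicate 2. The 4 comparisons between these groups share libraries, so a high or low WT insulin value enters 3 of these results at once.

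Clock genes moved in the same livers, whose collection time was one for all 4 groups. Of 19 clock genes, 4 were higher and 6 lower after insulin in WT, and 5 higher and 4 lower in ERRα-/- livers. Over all genes, 8.34% were called higher and 8.91% lower in WT, and 8.05% higher and 9.14% lower in ERRα-/- livers. Arntl, which encodes BMAL1, was higher by a log2 change of 2.42 in WT (adjusted p = 0.00197) and 1.45 in ERRα-/- (adjusted p = 0.0653). Dbp, a clock output gene, was lower by a log2 change of -2.11 (adjusted p = 0.00924) and -1.36 (adjusted p = 0.0232). With saline, 8 clock genes were lower and 1 higher in ERRα-/- than in WT livers, none with an adjusted p under 0.05 by edgeR. The share of all genes called there, in either direction, was 11.3%. Klf9, Klf10, Klf11 and Klf15 passed the test in none of these 3 comparisons.

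Immediate-early genes, which share quick induction with Klf2, Klf4 and Klf6, gave 2 of 14 higher after insulin in WT (8.34% of all genes were), and 1 higher (8.05%) and 1 lower (9.14%) of 14 in ERRα-/- livers. Fos was higher by 2.27 in WT (adjusted p = 0.0343). In ERRα-/- against WT livers with saline 8 of 14 were higher, none with an adjusted p under 0.05, while 11.3% of all genes were called in either direction. Other families gave few calls. Of the other Klf genes, 0 of 4 tested in WT and 0 of 3 tested in ERRα-/- livers passed the test after insulin. Of the 5 Sp genes tested, only Sp4 did, in WT livers (-0.52, adjusted p = 0.185). Among markers of other cells, the calls after insulin in WT livers were Acta1 of skeletal muscle (5.15), Fabp4 of adipocytes (0.93), Kdr of endothelium (-0.60) and Lrat of stellate cells (-0.88), while macrophage, lymphocyte, cholangiocyte and erythroid lists gave 0. In ERRα-/- livers 1 of 5 erythroid markers was higher and no other such list gave a call.

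Among livers of the insulin experiment, the 45 pairs of members were compared after group means were removed, over 15 livers. No pair had an adjusted p under 0.05 in a permutation test within groups (100000 resamples), by Pearson's r or by Spearman's rho, and 4 pairs had an unadjusted p under 0.05 by each. Klf2 and Klf10 ran opposite to each other (r = -0.69, permutation p = 0.00786, adjusted p = 0.354; rho = -0.57, permutation p = 0.0380, adjusted p = 0.506; r = -0.66 without the 2 livers farthest from the median of Klf2). Klf3 and Klf9 ran together (r = 0.79, permutation p = 0.0317, adjusted p = 0.389; rho = 0.69, permutation p = 0.0467, adjusted p = 0.506), and r was 0.61 without WT insulin replicates 1 and 3. Both values with 2 livers left out kept group means that included those livers. With WT insulin replicate 1 alone left out before group means were removed, Klf3 and Klf9 had r = 0.39 (permutation p = 0.360). Their rho was then 0.20 (permutation p = 0.556), so the relation rests on that library. The genes most like each member over the 15 livers, of 8476 searched, are given as a description. They were Sgsh for Klf2 (r = 0.89), Klhl25 for Klf3 (0.95), Dhx9 for Klf4 (0.93), Med25 for Klf6 (0.87) and Aff4 for Klf9 (0.93). They were Zscan26 for Klf10 (r = 0.87), Orc3 for Klf11 (0.90), Prkar2a for Klf12 (0.96), Ahdc1 for Klf13 (0.93) and Tspan31 for Klf15 (0.92). The second in rank were Ucp2, Chd1, Igf2r, Sil1, Ankrd13c, Eny2, Ints13, Vps13b, Zfp644 and F2, in the same order of members. When WT insulin replicate 1 was left out after group means were removed, the Klf3 value with Klhl25 was 0.80. Those of the other 9 first genes then lay between 0.85 and 0.94. The group means still held that library, so these values are not free of it. By Spearman's rho, the lowest of the first genes were Ahdc1 with Klf13 (0.61) and Dhx9 with Klf4 (0.71). Values without WT insulin replicate 2, the lowest of the 15 livers in Klf4 and Klf13, were not computed.

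WT livers of both experiments are set side by side without a test, since they came from separate experiments and tables, and only 1 set was fasted and injected by its labels. Klf12 had 17.0 to 22.0 CPM in fasted mice given saline and 42.5 to 48.3 CPM in the WT littermates of ERRα3SA mice. Klf13 had 74.8 to 115 CPM in the first and 29.2 to 37.0 CPM in the second. Klf9 had 172 to 198 CPM and 117 to 165 CPM. These ranges did not overlap, while those of the other 7 members did. The share of all genes with separate ranges was not computed, and CPM was scaled apart in each experiment. The count therefore does not set these members apart from other genes. Levels after insulin in fasted WT livers were 4.54 to 14.9 CPM for Klf12 and 21.4 to 96.8 CPM for Klf13.

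In ERRα3SA against WT livers, 3 of 10 members passed the test, against 4.88% of 13339 genes. Klf10 had 6.10, 15.8, 4.63 and 10.2 CPM in WT and 10.4, 22.2, 21.2 and 14.4 CPM in ERRα3SA livers, and Klf11 had 5.78, 11.9, 7.03 and 9.60 CPM and 9.37, 12.5, 14.2 and 11.9 CPM. Klf4 had 1.98, 2.497, 2.06 and 1.43 CPM in WT and 1.18, 0.708, 1.32 and 1.68 CPM in ERRα3SA livers, from 15 to 63 counts. All 3 pairs of groups overlapped, with WT replicate 2 the highest WT liver for each gene. The log2 fold changes were 0.90 for Klf10 (SE 0.37, adjusted p = 0.651), 0.49 for Klf11 (SE 0.22, adjusted p = 0.665) and -0.70 for Klf4 (SE 0.28, adjusted p = 0.639). No gene had an adjusted p under 0.05 by edgeR in these livers, and 996 had an unadjusted p under 0.05, while DESeq2 gave 33 genes an adjusted p under it. Leaving out 1 library in turn gave 0 to 3 members, with 0 without WT replicate 1 or 3 and 1 without WT replicate 4 or ERRα3SA replicate 2 or 3. The other 7 members changed by -0.21 to 0.19 on the log2 scale, and the median of all 10 was -0.05 beside 0.00 over all genes. Glucocorticoid-induced genes were higher in 5 of 11, clock genes called in 0 of 18, immediate-early genes lower in 1 of 13 and amino acid breakdown genes lower in 2 of 20. Of cholangiocyte markers 3 of 5 were lower, and their summed level was 42.1 to 50.2 CPM in WT and 31.7 to 59.8 CPM in ERRα3SA livers. Of 3 lymphocyte markers tested 1 was higher and 2 were lower, and 1 of 8 endothelial markers was lower. Stellate and fibroblast markers gave 1 higher and 1 lower of 6. Macrophage markers gave 1 higher of 6, with all 6 above 0 in change, and summed to 217 to 245 CPM in WT and 242 to 315 CPM in ERRα3SA livers. ERRα3SA liver replicate 4 was farther from its group than the other livers (0.212 on the log2 scale, against 0.0959 to 0.135), and its hepatocyte markers summed to 62729 CPM against 89609 to 104468 CPM. Without it 3 members were called as well, Klf4 (-0.90), Klf10 (0.97) and Klf9 (-0.30), and Klf11 (0.49) was not. The part of those cells in the values was not tested.

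In ERRα3SA against WT muscles, 0 of 10 members passed the test, against 4.54% of 14081 genes. Log2 changes ran from -0.36 (Klf2, SE 0.31) to 0.32 (Klf10, SE 0.34). None had an unadjusted p under 0.05 by edgeR, and DESeq2 also called 0. The count stayed at 0 without ERRα3SA replicate 1, where 17.4% of all genes were called, and was 1 without WT replicate 2 (Klf10, 0.69). Klf15 in muscle had 29.0, 27.0, 33.4 and 29.7 CPM in WT and 16.4, 38.8, 42.3 and 14.5 CPM in ERRα3SA mice. The 4 ERRα3SA values lay outside the WT range, 2 below and 2 above it. The 2 below came from replicate 1, which stood apart from its group, and replicate 4, the next farthest muscle (0.221 on the log2 scale). In replicate 4, macrophage markers summed to 78.7 CPM, against 24.2 to 33.4 CPM in the other muscles. Its skeletal muscle markers summed to 81308 CPM, the lowest of the muscles. The part of these differences in the Klf15 values was not tested. Klf12 had 11.1 to 13.0 CPM in WT and 25.5, 11.4, 9.13 and 8.63 CPM in ERRα3SA muscles, and the value of 25.5 came from replicate 1. Its log2 change was 0.23 with that library and -0.25 (SE 0.12, adjusted p = 0.236) without it. The effect of ERRα3SA in muscle minus that in liver passed the test for 0 of 10 members, against 5.57% of 15688 genes, by edgeR and by DESeq2. No member had an unadjusted p under 0.05 in edgeR. Klf3 (0.27, SE 0.15) was called in it without ERRα3SA liver replicate 1 (0.33, adjusted p = 0.913). Thus the liver and muscle effects of Klf10, Klf11 and Klf4 were not shown to differ.

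**Figure D4:**
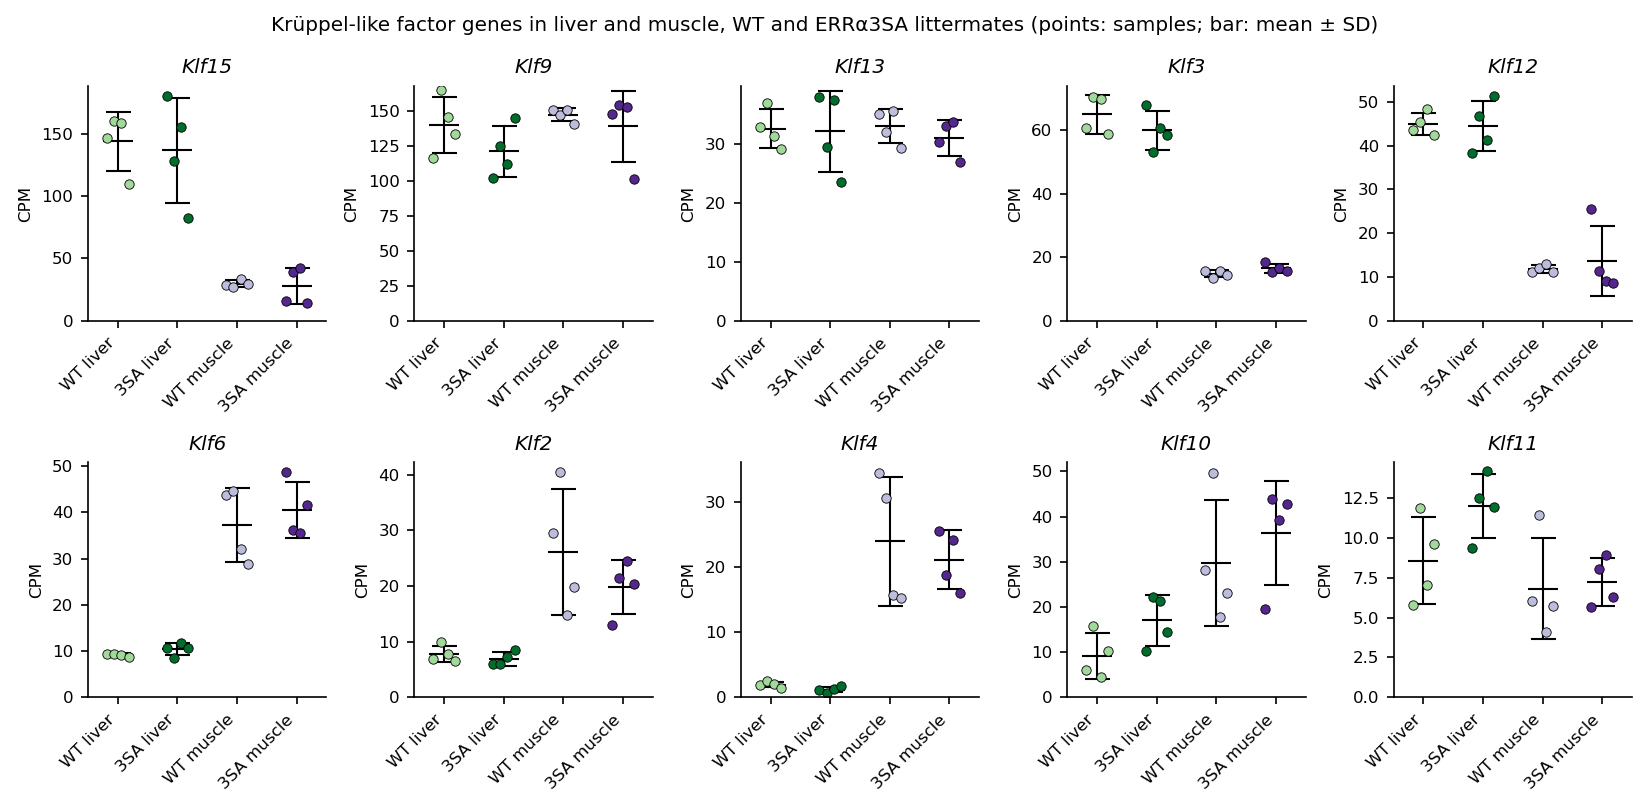
CPM of each KLF gene in liver and muscle of WT and ERRα3SA littermates, 1 point per library with the mean ± SD. Klf15 in ERRα3SA muscle lies at 14.5 to 42.3 CPM around a WT range of 27.0 to 33.4 CPM, and Klf12 of 1 ERRα3SA muscle lies at 25.5 CPM.

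**Figure D5:**
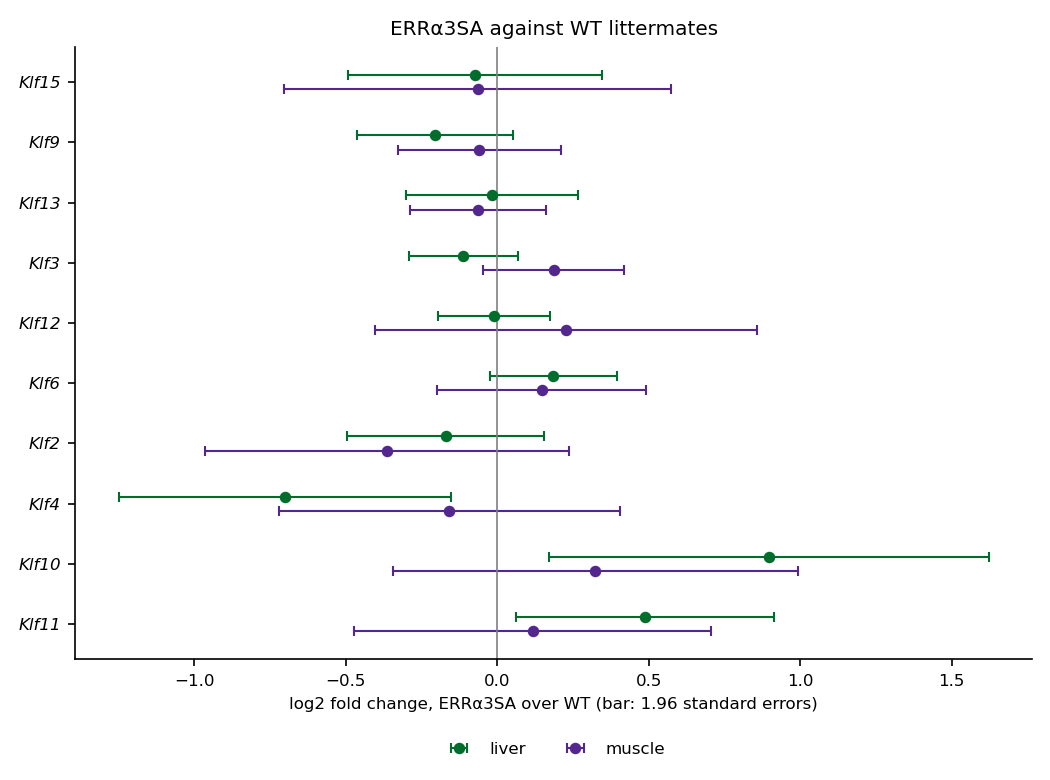
Log2 fold change of ERRα3SA over WT with its 95% interval (normal approximation) for each KLF gene in liver and in muscle. Klf10 (0.90), Klf11 (0.49) and Klf4 (-0.70) lie away from 0 in liver, and no muscle value is past the test.

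Muscle and liver of the WT littermates differed in 7 of 10 members, against 84.2% of 14886 genes. Klf4 was higher in muscle by a log2 change of 3.61 (SE 0.29, adjusted p = 3.24e-08), with 34.4, 30.6, 15.7 and 15.3 CPM against 1.43 to 2.497 CPM in liver. Klf6 (2.05), Klf2 (1.78) and Klf10 (1.73) were higher too, with SE of 0.13 to 0.35. Klf15 (-2.24), Klf3 (-2.09) and Klf12 (-1.89) were lower in muscle, with SE of 0.07 to 0.11. Klf9 (0.11), Klf13 (0.05) and Klf11 (-0.29) did not pass the test, though Klf11 did without WT muscle replicate 2 (-0.66, adjusted p = 0.0171). Groups of the 7 called members did not overlap. The share of all genes with separate ranges was not computed, so this does not set these members apart from other genes. Per kb, Klf9 was the highest member in WT muscle (32.9 ± 1.05, SD, n = 4), followed by Klf2 (14.1 ± 6.13) and Klf15 (12.0 ± 1.07), whose ranges overlapped. Endothelial markers summed to 198 to 237 CPM in WT liver and 264 to 302 CPM in WT muscle, and stellate and fibroblast markers to 214 to 245 and 3635 to 4085 CPM. The part of these cells in the muscle levels of Klf2, Klf4 and Klf6 was not tested.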

How the data were processed

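RNA of liver and of skeletal muscle was sequenced in 31 libraries. Per the study's methods, the authors prepared NEBNext Ultra libraries, aligned paired-end reads to mm10 with STAR and counted reads per gene while mapping. The strand setting and the annotation release are not given in the sources used here. The deposited files hold raw counts per Ensembl gene, 1 table per experiment, and the 2 tables were fitted apart. No other per-sample values were used.

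Gene identifiers were matched to symbols through GENCODE vM21. Counts were tested with the quasi-likelihood test of edgeR 4.0.16 (R 4.3.3) with TMM normalization and its filter on low counts, fitting only the groups of each comparison, with Benjamini-Hochberg adjustment over all genes tested. A call needed an unadjusted p under 0.05 and a fold of at least 1.2, the thresholds of the study's methods. CPM used TMM library sizes, and log2 values a prior count of 2. The SE was the absolute log2 change divided by the square root of the F statistic of the test. Simulated data held genes changed by a set log2 fold change, larger than that of any member in the comparisons named next. A gene counted as found there at an adjusted p under 0.05, not by the rule for a call above. EdgeR found 69.0% of changed genes for insulin in WT livers (13463 genes) and 50.5% for the interaction (14670 genes). It found 92.0% for ERRα3SA in liver (13339 genes) and 60.5% for the difference of ERRα3SA effects (15688 genes). Among genes with an adjusted p under 0.05, the false share was 3.81% by edgeR and 16.3% by DESeq2 for the interaction. For ERRα3SA in liver it was 4.17 and 14.3%. For insulin in ERRα-/- livers it was 7.19 and 18.6%, and for ERRα3SA in muscle 5.95 and 21.3%. Simulated counts were drawn with the spread per gene that edgeR estimated, and without effects shared by the genes of a library. The shares of the 2 tools were thus not compared on even terms. The false share of calls by the unadjusted rule was not tested. Alternatives were DESeq2 1.42.0, RLE normalization, no filter, a replicate block, all 4 groups of an experiment in one fit, a prior count of 0.5 for pairs, and leaving out each library.

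The members and lists were chosen with earlier results of these data known. The genes named are the 10 members, Esrra, listed genes as examples, and for each member the 2 genes of largest Pearson r over the livers of the insulin experiment after group means were removed, among those with a mean CPM of at least 5. The examples from the lists were chosen after their values were seen. The lists held other Klf genes, Sp genes, clock, glucocorticoid-induced, immediate-early and amino acid breakdown genes, and markers of 9 cell types. No 2 libraries of a group agreed within sampling noise (smallest chi-square per degree of freedom 6.30), so none were merged. Same-numbered libraries did not deviate together in every pair of any comparison, so the numbers were not taken as pairs.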

Additional observations from a re-analysis of the deposited data

Results flagged for a closer look

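In 70 sets of 4 libraries, 1 per member and group, 5 held a library whose gap to the nearest other exceeded Dixon's 95% critical value, and chance gives about 1 in 20. They were Klf3 in WT insulin replicate 1 (125 CPM), Klf6 in ERRα-/- saline replicate 2 (11.3 CPM), Klf10 in ERRα-/- saline replicate 1 (13.9 CPM), Klf9 in ERRα3SA muscle replicate 4 (102 CPM) and Klf10 in ERRα3SA muscle replicate 1 (19.5 CPM). The effect of insulin differed between WT and ERRα-/- livers by the interaction test (unadjusted p under 0.05) for Klf2 (0.87 on the log2 scale) and Klf6 (0.66), and for neither after adjustment over all genes by edgeR (adjusted p = 0.548 and 0.545).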

How the results depend on the processing

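The number of members called moved by over 1.5 times in 3 comparisons with all libraries kept. Between genotypes with saline it was 1 with the 4 groups of the experiment in one fit (2 as reported). Between genotypes with insulin it was 2 with DESeq2, 3 without the filter, 3 with the replicate block and 3 with 4 groups in one fit (1 as reported). For ERRα3SA in liver it was 1 with 4 groups in one fit (3 as reported). Leaving out each library in turn gave 3 to 5 for insulin in WT, 3 to 3 for insulin in ERRα-/- livers, 1 to 3 between genotypes with saline, 0 to 4 with insulin, 0 to 3 for the interaction, 0 to 3 for ERRα3SA in liver, 0 to 1 in muscle, 0 to 1 for the difference of these effects, 7 to 8 for muscle against liver, and 0 to 1 for pairs of members (1 without WT insulin replicate 2). Among values called under some setting, the direction turned for Klf10 between genotypes with insulin (-0.014 without ERRα-/- insulin replicate 1, up to 1.08 without WT insulin replicate 3) and for Klf13 in the interaction (-0.019 without WT insulin replicate 1, up to 0.63 without WT insulin replicate 2). The cause was not tested. Of 50 values never called, 35 changed sign at least once, among them Klf10 after insulin in WT (0.36, and -0.38 without WT insulin replicate 3), Klf3 in the interaction and Klf12 in ERRα3SA muscle. Of the single values recomputed with all libraries kept, 179 kept their direction and side of the threshold, 11 gained a call and 4 lost it.

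Replicate numbers did not pair the libraries throughout. In WT livers with and without insulin, correlations of same-numbered deviations ran from -0.03 to 0.61, and 2 of 4 were best with their own number. These were replicates 3 and 4 (0.61 and 0.51), which were also best with their own number between genotypes with saline (0.48 and 0.33). A pairing or batch of part of the libraries cannot be told from these values. The replicate block gave 4 calls for insulin in WT, 3 in ERRα-/- livers, 3 between genotypes with saline, 2 for the interaction, 2 for ERRα3SA in liver, 0 in muscle, 0 for the difference of these effects and 7 for muscle against liver.

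Groups of 3 or 4 libraries limit every comparison. Klf4 in liver rests on 15 to 316 counts per library.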
